A study of Mus musculus with 8 samples.

Results

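Signals of the bone morphogenetic protein (BMP) pathway were measured in embryonic kidneys of Lim1 conditional mutant and control mice. The genes described are the ligands Bmp2, Bmp4, Bmp5, Bmp6 and Bmp7, the receptors Bmpr1a and Bmpr2, and the target genes Id1, Id2 and Id3. They were taken by name, with earlier results of these data known. All probe sets whose single gene symbol was one of these names were taken, which gave 23 of the 45101 probe sets on the array and 10 of 18194 named genes. A probe set is a group of short probes that together read 1 transcript, and a gene is given by its brightest probe set, the one with the highest mean over all arrays, unless another is named. Levels are not compared between genes, since probe sets differ in how strongly they bind.

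BMPs are secreted proteins of the transforming growth factor beta superfamily. They bind complexes of type I and type II receptor kinases, which phosphorylate Smad proteins that enter the nucleus with Smad4 and turn on target genes, the Id genes among them. In the developing kidney the pathway is known for its part in keeping nephron progenitors and in shaping the ureteric bud, the epithelial tube whose tips induce nephrons in the surrounding metanephric mesenchyme.

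The array study set mutant kidneys, in which nephrons do not form, against control kidneys at embryonic days E18.5 and E14.5. Mutants were Lim1 flox/lacZ; Rarb2-Cre tg/+ and controls were Lim1 flox/+; Rarb2-Cre tg/+, so that both genotypes carried the Cre transgene and a floxed allele, and only the mutants carried the lacZ null allele. The Cre is expressed in the metanephric mesenchyme, and the ureteric bud of a mutant therefore keeps its floxed allele. Whole kidneys of 9 E18.5 mutant, 14 E18.5 control, 17 E14.5 mutant and 23 E14.5 control embryos were combined into 1 RNA pool per group, on a mixed background of C57BL/6J, 129/SvEv and SJL/J. Each pool was labelled and hybridized to 2 arrays, so the duplicates measure technical spread and each group is 1 biological sample. No p-value was therefore computed between 2 pools, and the error of a ratio is its range over the 4 pairings of single arrays. Ratios are mutant over control and E18.5 over E14.5. The study took its ratios the other way, control over mutant.

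The median signal of an array lay between 225 and 243, and the 40th percentile, used here as the lower limit of a reliable signal, between 177 and 193. The median probe set above that limit differed between duplicates by 1.16-fold in E18.5 mutants, 1.07-fold in E18.5 controls, 1.08-fold in E14.5 mutants and 1.10-fold in E14.5 controls. Lhx1, the current symbol of Lim1, gave 459 and 379 in E18.5 mutants, 342 and 382 in E18.5 controls, 323 and 289.8 in E14.5 mutants and 388 and 365 in E14.5 controls by 1421951_at, and 296 and 333, 369.9 and 352, 563 and 554, and 449 and 517 in the same order by 1450428_at. The 2 probe sets differed in direction, and where they lie relative to the deleted exons is not given in the sources used here, so they do not check the genotype labels. The nephron gene Slc34a1, a phosphate transporter of the proximal tubule, had 85.2 and 73.8 in E18.5 mutants against 5061 and 5027 in E18.5 controls, and Six2, the defining transcription factor of nephron progenitors, was well above the limit on all 8 arrays, between 778 and 2147.

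The brightest probe sets of 8 of the 10 genes were above the lower limit on all 8 arrays, that of Bmp2 on 6 and that of Bmp5 on 0, and most differences between pools were under 1.5-fold. Bmp2 was higher in mutants than in controls at E18.5, by at least 1.38-fold, with the control signal set to the limit that it did not reach. Id3 was higher in mutants at both stages, 1.32-fold at E18.5 and 1.29-fold at E14.5. In controls Bmp7 and Id1 were higher at E18.5 than at E14.5, by 1.42-fold and 1.75-fold, and in mutants the brightest probe set of Bmp7 overlapped between the stages. Bmp4, Bmp6 and the brightest probe sets of Bmpr1a and Id2 overlapped between the duplicates of mutants and controls at both stages.

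**Figure D1:**
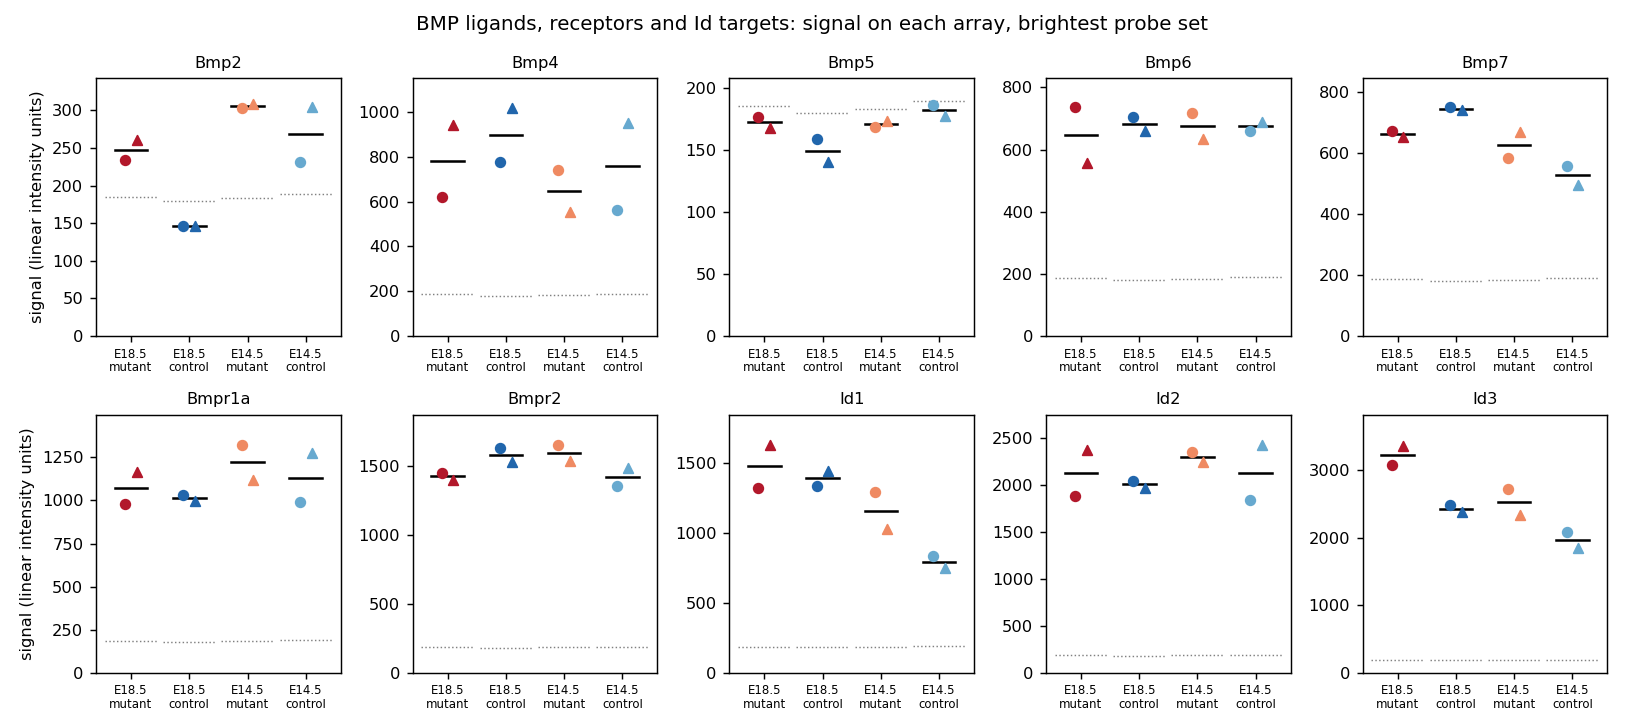
Signal of the brightest probe set of each gene (y axis, linear intensity units from 0) on each array, by pool. Circles are array 1, triangles array 2, black bars their mean and dotted lines the mean 40th percentile of the pool's arrays. Bmp2 sat at 146 and 147 in E18.5 controls, under all other arrays, and Id3 at 3074 and 3364 in E18.5 mutants, above all other arrays.

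A difference was called at 2-fold when the ratio of the means was at least 2, exceeded the fold between the duplicates of either pool, had a mean of the higher pool times the ratio above 100, and both arrays of the higher pool reached their 40th percentile. A gene was called when any of its probe sets passed. None of the 10 genes was called in mutants over controls at E18.5, where 0.165% of all named genes were called higher and 2.23% lower. None was called at E14.5, where 0.0055% were called higher and 0.121% lower. With 1.5 in place of 2, Bmp2 was the 1 gene called, higher in mutants at E18.5, against 1.22% of named genes called higher and 5.08% called lower, and none was called at E14.5, against 0.456% and 0.478%.

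Between the stages, Bmp7 was the 1 gene called at 2-fold, higher at E18.5 in controls, where 4.75% of named genes were called higher and 2.94% lower. None was called at 2-fold in mutants, against 1.35% higher and 1.49% lower. At 1.5-fold, Bmp7 and Id1 were higher and Bmp2 lower at E18.5 in controls, against backgrounds of 11.7% and 6.97%, and Bmp7 was higher in mutants, against backgrounds of 4.5% called higher and 6.08% called lower. No test sets these counts of 1 or 2 among 10 genes apart from the background shares.

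Among the ligands, Bmp2 is known in the kidney for limiting the branching of the ureteric bud. Its probe set 1423635_at gave 235 and 260.3 in E18.5 mutants, 146 and 147 in E18.5 controls, 303 and 308 in E14.5 mutants, and 232 and 305 in E14.5 controls. The E18.5 control arrays were the lowest of all and lay below their 40th percentiles, the other 6 lay above theirs, and the groups overlapped at E14.5 only through 1 control array. The measured ratio of mutant to control was 1.69 (range over array pairings 1.60 to 1.78) at E18.5 and 1.14 (0.995 to 1.33) at E14.5. With the E18.5 control arrays set to their 40th percentiles, the E18.5 difference was at least 1.38-fold, which is under the 1.5-fold limit for a call. From stage to stage it was 0.809 (0.762 to 0.858) in mutants and 0.545 (0.478 to 0.632) in controls, E18.5 over E14.5, the ratio in controls again resting on arrays below the limit. The comparison of genotypes at E18.5 and that of stages in controls share the E18.5 control pool, so both rest on the same low arrays. In these bulk samples fewer cells of a type and less RNA per cell cannot be told apart.

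Bmp7 is required for the survival of nephron progenitors and is made by the ureteric bud and by the mesenchyme and its early nephrons. The brightest probe set, 1435479_at, gave 672 and 655 in E18.5 mutants, 752 and 741 in E18.5 controls, 585 and 669 in E14.5 mutants, and 558 and 496 in E14.5 controls. Mutants were thus lower than controls at E18.5 and higher at E14.5, with no overlap at either stage, and the ratios were 0.888 (0.871 to 0.906) at E18.5 and 1.19 (1.05 to 1.35) at E14.5. E18.5 over E14.5, it stood at 1.06 (0.978 to 1.15) in mutants and 1.42 (1.33 to 1.51) in controls.

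The other Bmp7 probe sets showed a wider step between the stages. On 1418910_at the signal was 252 and 348 in E18.5 mutants, 319 and 354 in E18.5 controls, 179 and 171 in E14.5 mutants, and 149.5 and 125 in E14.5 controls. All 4 E18.5 arrays lay above all 4 E14.5 arrays, and the E14.5 arrays lay below their 40th percentiles. E18.5 over E14.5, the ratio was 1.72 (1.41 to 2.04) in mutants and 2.46 (2.14 to 2.84) in controls, and the ratio in controls was the one called at 2-fold. With the E14.5 arrays set to their 40th percentiles, these are differences of at least 1.64-fold in mutants and at least 1.78-fold in controls, so the 2-fold call rests on signals below the limit. On 1432410_a_at the signal was 264 and 271 in E18.5 mutants, 256 and 264 in E18.5 controls, 171 and 159 in E14.5 mutants, and 193 and 148 in E14.5 controls. The stages were again apart, by 1.62-fold (1.54 to 1.70, at least 1.46-fold with the E14.5 arrays at their 40th percentiles) in mutants and 1.52-fold (1.33 to 1.78) in controls, and the genotypes differed by 1.03-fold (0.999 to 1.06) at E18.5 and 0.966-fold (0.824 to 1.15) at E14.5. The 3 probe sets of Bmp7 were thus all higher at E18.5 in controls and disagreed on the size of the stage difference. In mutants the brightest overlapped between the stages and the other 2 did not. The ratios of mutant to control also lay on different sides of 1 at both stages. Those of 1432410_a_at overlapped at both stages and that of 1418910_at at E18.5, at 0.891 (0.711 to 1.09).

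**Figure D2:**
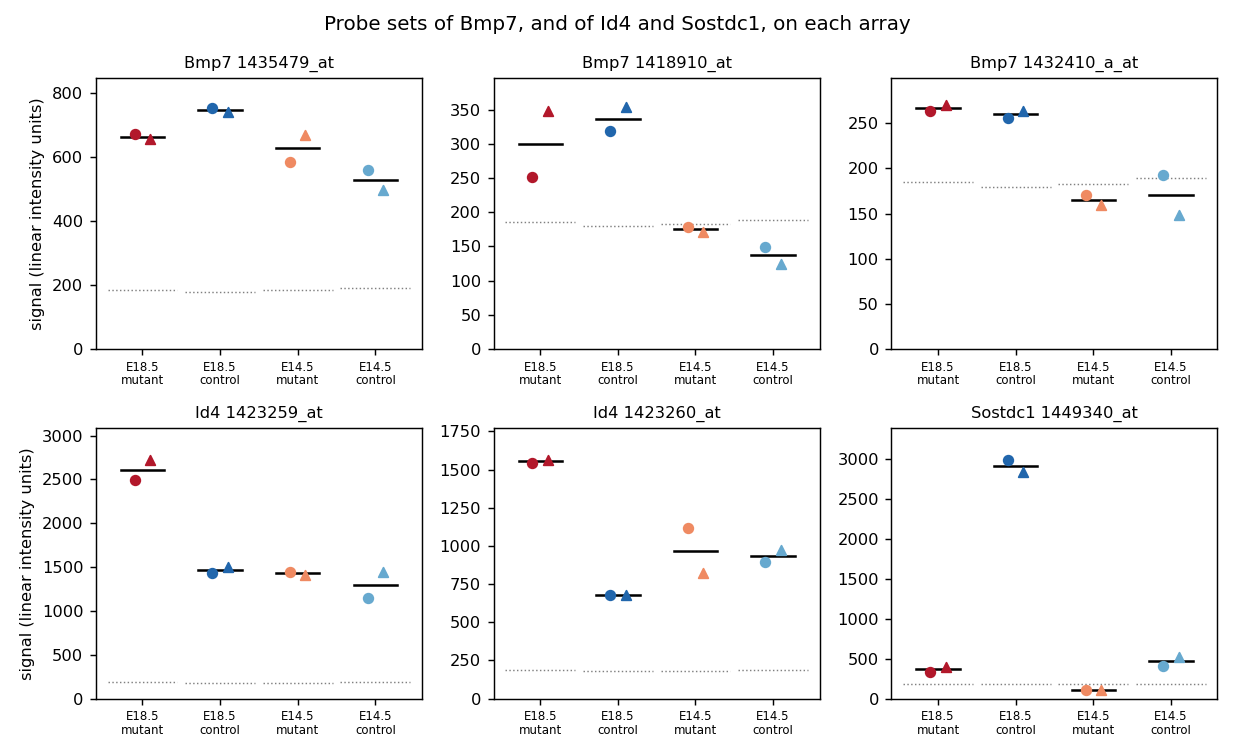
Signal on each array (y axis, linear intensity units from 0) for the 3 probe sets of Bmp7 and for probe sets of Id4 and Sostdc1, by pool. Circles are array 1, triangles array 2, black bars means and dotted lines the mean 40th percentile of the pool's arrays. E18.5 signals of Bmp7 on 1418910_at, between 252 and 354, lay above its E14.5 signals of 125 to 179, and Sostdc1 was highest in E18.5 controls.

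Bmp4 is made by mesenchyme around the nephric duct and the ureter, where it restrains the outgrowth of ectopic ureteric buds and patterns the ureter wall. Its signal was 621 and 943 in E18.5 mutants, 779 and 1021 in E18.5 controls, 741 and 556 in E14.5 mutants, and 564 and 954 in E14.5 controls. In every pool the duplicates were farther apart than those of at least 95% of probe sets above the limit, by 1.52-fold in E18.5 mutants, 1.31-fold in E18.5 controls, 1.33-fold in E14.5 mutants and 1.69-fold in E14.5 controls. All 4 comparisons of Bmp4 overlapped, with ratios of mutant to control of 0.869 (0.608 to 1.21) at E18.5 and 0.854 (0.583 to 1.31) at E14.5. Other probe sets shared this pattern, since 17 of the 27061 probe sets whose mean reached the limit were at least 1.5-fold higher on the same arrays as Bmp4 in all 4 pools, a threshold that Bmp4 itself met in E18.5 mutants and E14.5 controls. No difference in Bmp4 was detectable beyond the spread of its duplicates.

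Bmp6, a ligand close in sequence to Bmp5 and Bmp7, gave 737 and 555 in E18.5 mutants, 706 and 660.1 in E18.5 controls, 718 and 635 in E14.5 mutants, and 661 and 689.7 in E14.5 controls. The pool means spanned only 646 to 683, and each of the 4 comparisons overlapped, at ratios between 0.946 and 1.01. The widest interval, for E18.5 over E14.5 in mutants, ran between 0.774 and 1.16. Bmp5, known in mice from the short-ear mutation, was read by 3 probe sets that stayed below the 40th percentile on all 8 arrays, with signals between 91.5 and 186, so its levels are bounds and no ratio of them is given weight.

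Bmpr1a is a type I receptor for BMP ligands and was read by 6 probe sets. The brightest, 1425492_at, gave 979.9 and 1164 in E18.5 mutants, 1034 and 996 in E18.5 controls, 1324 and 1119.8 in E14.5 mutants, and 990.1 and 1275 in E14.5 controls. Mutant and control arrays overlapped at both stages, with ratios of 1.06 (0.948 to 1.17) at E18.5 and 1.08 (0.879 to 1.34) at E14.5. Of the other 5, 1445413_at lay below the 40th percentile on all arrays, and 1425493_at had duplicates 1.89-fold apart in E18.5 controls and 1.53-fold apart in E14.5 mutants. On 1425491_at mutants were 1.11-fold (1.02 to 1.20) over controls at E18.5 and overlapped them at E14.5. On 1451729_at, above the limit on all 8 arrays, the mutant mean lay below the control mean at both stages. Its arrays overlapped, at ratios of 0.871 (0.702 to 1.08) at E18.5 and 0.958 (0.910 to 1.01) at E14.5. E18.5 over E14.5, 1425491_at stood at 0.813 (0.748 to 0.885) in controls and overlapped in mutants. For 1425494_s_at that ratio was 0.864 (0.779 to 0.952) in mutants and 0.779 (0.670 to 0.915) in controls, while the brightest overlapped in both. None of the 6 passed the 1.5-fold criteria in any comparison.

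Bmpr2 is the type II receptor that phosphorylates the type I partner. Its brightest probe set gave 1443 and 1399 in E18.5 mutants, 1630.4 and 1523 in E18.5 controls, 1648 and 1533 in E14.5 mutants, and 1348 and 1479.9 in E14.5 controls. The groups did not overlap in any of the 4 comparisons, and the differences were small, with mutants lower at E18.5, at 0.901 (0.858 to 0.947), and higher at E14.5, at 1.12 (1.04 to 1.22). E18.5 over E14.5, Bmpr2 was 0.893 (0.849 to 0.941) in mutants and 1.12 (1.03 to 1.21) in controls. With quantile normalization the log2 ratios of mutant to control were -0.00 in the E18.5 pair and 0.07 in the E14.5 pair, against -0.15 and 0.17 as deposited. The other probe sets of Bmpr2 lay below the limit on all but 1 of their readings.

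Id proteins are helix-loop-helix proteins without a DNA-binding domain, which bind E proteins and keep them off DNA, and their genes are direct targets of the Smads. The promoters of Id2 and Id3 are shown as those of the 2 Id genes among the 10 genes for which a promoter was matched. Each run is the 250 bases upstream of the annotated transcription start from RefSeq on GRCm38.p6, 5′ to 3′ on the strand of the gene, at chr12:25096093-25096342 (minus strand) for Id2 and chr4:136143572-136143821 (plus strand) for Id3. Capitals mark matches to GGCGCC, a GC-rich sequence that BMP Smads can bind, and to GTCT, the core Smad-binding sequence, or its reverse complement.
Id2: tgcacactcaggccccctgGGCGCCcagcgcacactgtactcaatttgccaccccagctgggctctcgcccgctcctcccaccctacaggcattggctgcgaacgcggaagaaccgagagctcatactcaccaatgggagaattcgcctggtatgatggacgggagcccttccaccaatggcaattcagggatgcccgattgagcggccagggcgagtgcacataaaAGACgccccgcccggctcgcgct
Id3: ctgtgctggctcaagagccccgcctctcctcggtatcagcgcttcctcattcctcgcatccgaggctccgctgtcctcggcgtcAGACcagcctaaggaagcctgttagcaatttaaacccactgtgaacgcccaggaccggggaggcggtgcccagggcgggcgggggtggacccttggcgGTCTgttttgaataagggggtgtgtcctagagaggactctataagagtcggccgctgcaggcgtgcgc

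Id2 held 1 GGCGCC, which begins 231 bases before the start, and 1 match to GTCT, while Id3 held no GGCGCC and 2 matches to GTCT. Of 32851 mouse promoter windows of the same length, 9.59% held GGCGCC and 82.9% held GTCT on either strand. Promoters were matched for 7 of the 10 genes. GGCGCC was also found in Bmpr1a and Bmpr2, with 1 match each, and not in the windows of Bmp4, Bmp5 and Bmp6. GTCTAGAC, the palindrome of the Smad site, was in none of the 7 windows and in 0.167% of all. CANNTG, the E box that E proteins bind (either strand), was found 3 times in Bmp4, 2 times in Bmp6 and 1 time in Id2, in 66.2% of all windows, and TATAAA was in none of the 7 and in 12.4% of all. A match is a description of the letters in the window, and the arrays did not measure binding.

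Id1, which in many cell types is induced within hours of BMP treatment, gave 1320.2 and 1625 in E18.5 mutants, 1335 and 1442 in E18.5 controls, 1290.1 and 1023 in E14.5 mutants, and 834 and 748 in E14.5 controls. The E14.5 controls were the lowest arrays and did not overlap any other pool. Mutant over control, the ratio was 1.06 (0.916 to 1.22) at E18.5 and 1.46 (1.23 to 1.72) at E14.5, and E18.5 over E14.5 it was 1.27 (1.02 to 1.59) in mutants and 1.75 (1.60 to 1.93) in controls. The E14.5 genotype comparison and the control stage comparison share the low E14.5 control pool.

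Id3, which often moves with Id1 in BMP responses, had 3074 and 3364 in E18.5 mutants, 2482 and 2378 in E18.5 controls, 2725 and 2343 in E14.5 mutants, and 2089 and 1844 in E14.5 controls. Both mutant arrays exceeded both control arrays at each stage, and both E18.5 arrays exceeded both E14.5 arrays among controls and among mutants. The ratios of mutant to control were 1.32 (1.24 to 1.41) at E18.5 and 1.29 (1.12 to 1.48) at E14.5, and those of E18.5 to E14.5 were 1.27 (1.13 to 1.44) in mutants and 1.24 (1.14 to 1.35) in controls. All 4 lay under the 1.5-fold limit for a call. With quantile normalization the log2 ratios of mutant to control were 0.56 in the E18.5 pair and 0.31 in the E14.5 pair, against 0.41 and 0.37 as deposited.

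Id2, expressed in many developing epithelia, was read by 3 probe sets. The brightest, 1435176_a_at, gave 1885 and 2372 in E18.5 mutants, 2041 and 1968 in E18.5 controls, 2351 and 2244 in E14.5 mutants, and 1838 and 2419 in E14.5 controls, and all 4 comparisons overlapped. On 1422537_a_at mutants were 1.10-fold (0.992 to 1.23) over controls at E18.5 and 1.25-fold (1.15 to 1.34) at E14.5. On 1453596_at they were 1.25-fold (1.17 to 1.34) over controls at E18.5 and 1.08-fold (1.04 to 1.13) at E14.5. The mutant mean thus lay above the control mean on all 3 probe sets at both stages, with the arrays apart at both stages on 1453596_at, at E14.5 alone on 1422537_a_at and at neither on the brightest.

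**Figure D3:**
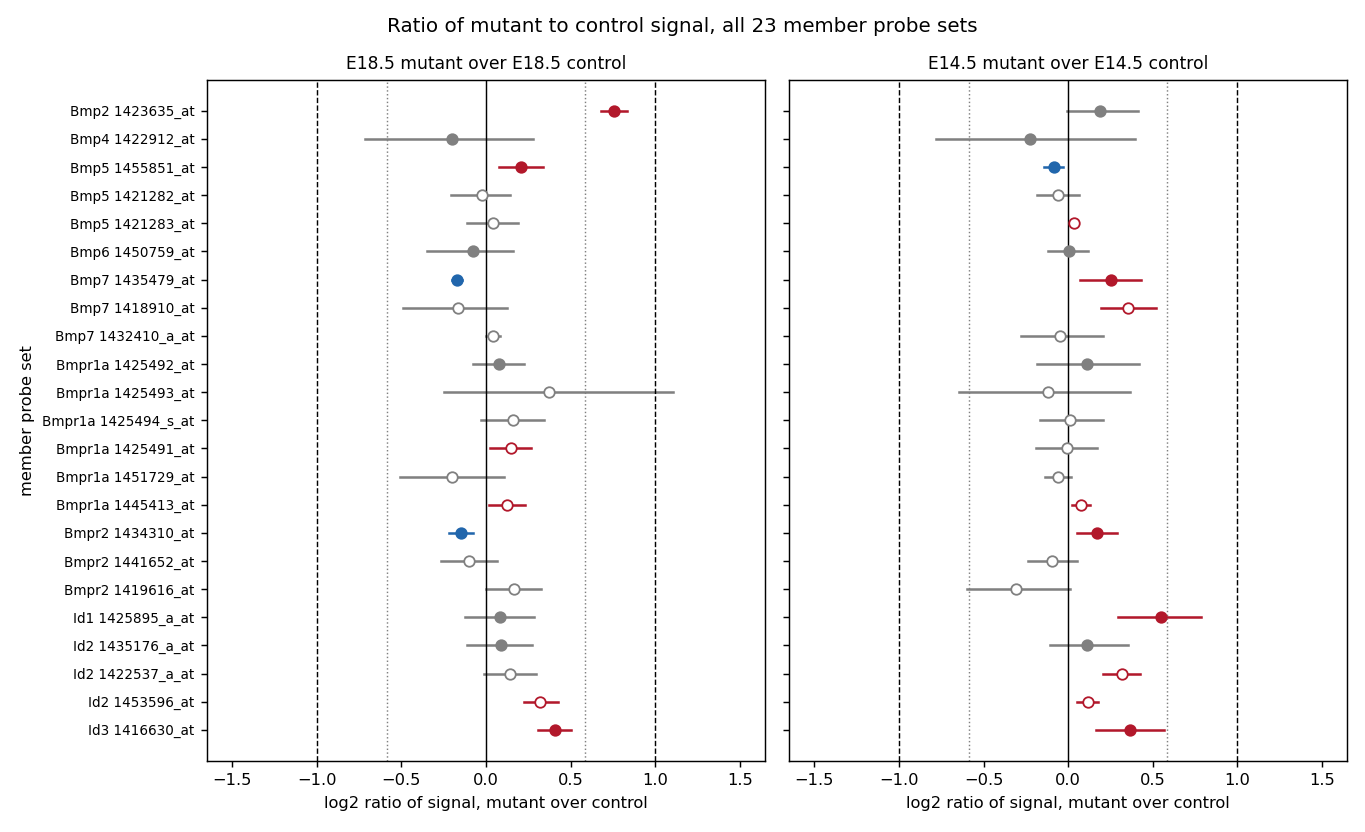
Log2 ratio of mutant to control signal (x axis) for all 23 probe sets (y axis), at E18.5 on the left and E14.5 on the right. Points are ratios of duplicate means, filled for the brightest probe set of a gene, and lines the range over the 4 array pairings, red or blue where the whole range is above or below 0 and grey otherwise. Dashed and dotted lines mark 2-fold and 1.5-fold, and Bmp2 at E18.5, at 0.76, is the only point past the dotted lines.

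**Figure D4:**
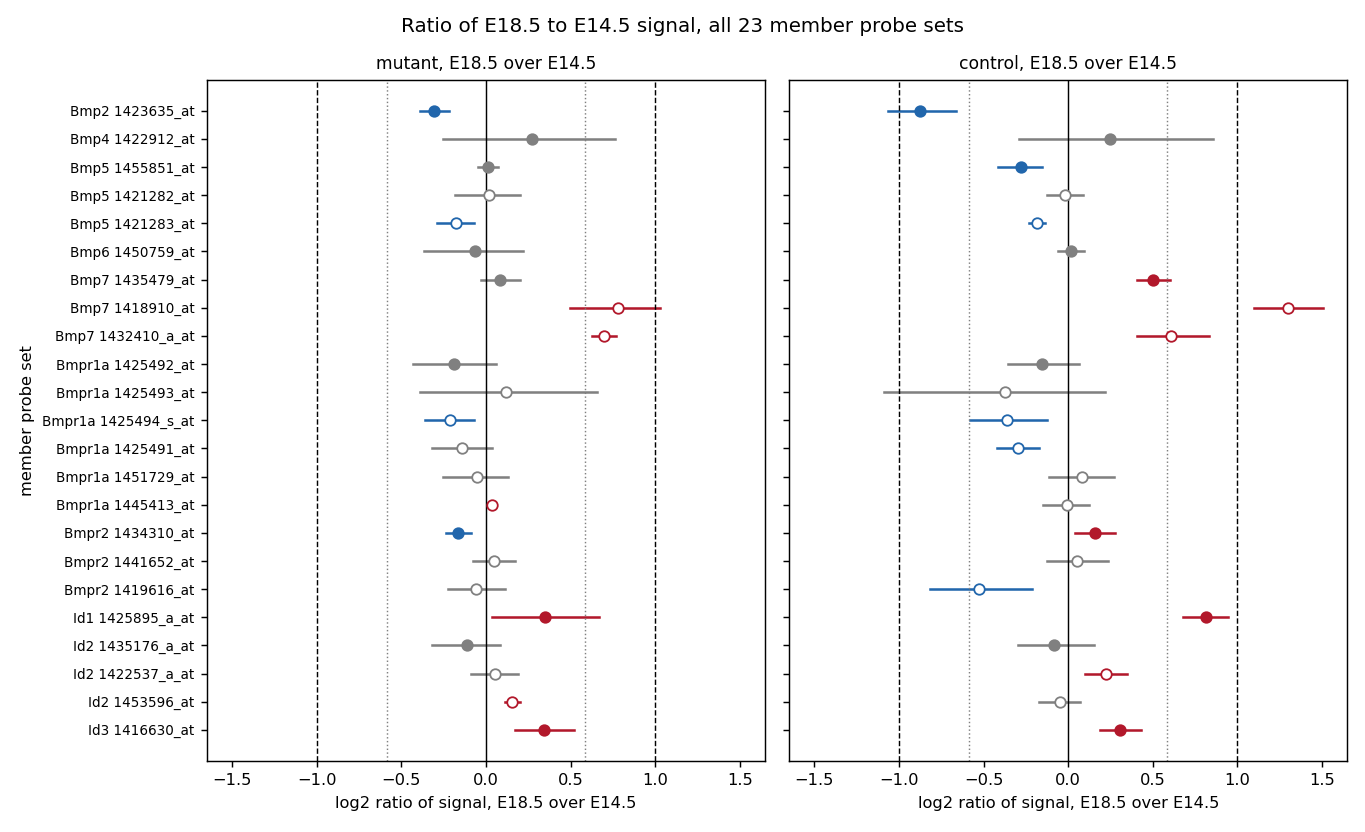
Log2 ratio of E18.5 to E14.5 signal (x axis) for all 23 probe sets (y axis), in mutants on the left and controls on the right, drawn as in the plot of genotype ratios. In controls Bmp7 on 1418910_at, at 1.30, is past the dashed line of 2-fold, and Bmp2, at -0.88, is the lowest point.

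Over the brightest probe sets of the 10 genes, the median log2 ratio of E18.5 mutants to E18.5 controls was 0.08 and that of E14.5 mutants to E14.5 controls 0.14, beside 0.03 and 0.01 over all named genes. The 5 ligands had medians of -0.08 and 0.00, the 2 receptors -0.04 and 0.14, and the 3 Id genes 0.09 and 0.37. The gap between the 2 Id medians depended on the scaling. With quantile normalization the log2 ratios of Id1, Id2 and Id3 were 0.22, 0.25 and 0.56 at E18.5. At E14.5 they were 0.44, 0.02 and 0.31. E18.5 over E14.5, the 10 genes had medians of -0.03 in mutants and 0.09 in controls, beside 0.02 and -0.01 over all named genes. The ligands stood at 0.01 and 0.02, the receptors at -0.18 and 0.00, and the Id genes at 0.35 and 0.31, again mutants first.

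The only test that 4 pools allow is an additive fit of genotype and stage with limma on the log2 signals, each pool 1 value, which assumes that the stage difference is the same in both genotypes. Of the 23 probe sets, 17 had a mean signal high enough to be tested, among 27061 in all, and those of Bmp5 were not. For E18.5 over E14.5, 2 of the 17 rose at an adjusted p under 0.05 and 0 fell, beside 3.42% of all probe sets called higher and 5.2% called lower. Both were Bmp7: 1418910_at rose by 1.03 on the log2 scale (SE 0.16, limma adjusted p = 0.0340) and 1432410_a_at by 0.65 (SE 0.11, limma adjusted p = 0.0377). Over the alternative settings their adjusted p ranged between 0.0107 and 0.0577 for 1418910_at and between 0.0225 and 0.0746 for 1432410_a_at. Neither passed with median scaling (limma adjusted p = 0.0577 and 0.0510) or without E18.5 control array 2 (limma adjusted p = 0.0528 and 0.0623), and 1432410_a_at did not pass without E14.5 control array 2 or without E14.5 mutant array 1 (limma adjusted p = 0.0746 and 0.0519). The brightest Bmp7 probe set changed by 0.29 (SE 0.15) and did not pass, with a limma adjusted p of 0.273.

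Other members did not pass for stage: Id1 changed by 0.58 (SE 0.15, limma adjusted p = 0.0874, range over settings 0.0327 to 0.163), Bmp2 by -0.58 (SE 0.17, limma adjusted p = 0.104) and Id3 by 0.33 (SE 0.11, limma adjusted p = 0.145). Id1 passed without E18.5 mutant array 1 and with quantile normalization (limma adjusted p = 0.0327 and 0.0411). For mutant over control no member passed, nor did any of the 27061 probe sets, of which 1045 had an unadjusted p under 0.05, 2.16% of all higher and 1.7% lower. The 2 members with an unadjusted p under 0.05 were Id3, at 0.38 (SE 0.11, unadjusted p = 0.0192), and Bmp2, at 0.48 (SE 0.17, unadjusted p = 0.0365), each with a limma adjusted p of 1.00. The fit sees pool means only, so the wide duplicates of Bmp4 do not enter its error.

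Outside the members, 61 of 67 listed genes of the pathway were measured. They are other ligands and receptors, coreceptors, Smads, inhibitors inside and outside the cell, further targets and the E proteins that Id proteins bind. At 2-fold, 1 was called higher and 1 lower in mutants at E18.5, against 0.165% and 2.23% of all named genes, and 0 and 1 at E14.5, against 0.0055% and 0.121%. For E18.5 over E14.5, 2 were called higher and 0 lower in mutants, against 1.35% and 1.49%, and 3 and 3 in controls, against 4.75% and 2.94%. Their median log2 ratios were 0.10 and 0.09 for mutant over control at E18.5 and E14.5, beside the 0.08 and 0.14 of the members.

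Sostdc1, a secreted antagonist that binds BMPs and is known in the kidney for opposing Bmp7, was the gene called lower in mutants at both stages. It gave 337 and 393 in E18.5 mutants, 2985 and 2835 in E18.5 controls, 113 and 110.5 in E14.5 mutants, and 413 and 519 in E14.5 controls. Mutants were far below controls at each stage, at ratios of 0.125 (0.113 to 0.139) at E18.5 and 0.240 (0.213 to 0.275) at E14.5. The E14.5 mutants lay under the 40th percentile, and set to it they were at least 2.55-fold lower than E14.5 controls. E18.5 exceeded E14.5 by 3.26-fold (2.98 to 3.56, at least 2.00-fold by the same bound) in mutants and 6.25-fold (5.46 to 7.23) in controls. The stage effect passed in limma at an adjusted p of 0.0202, while the genotype effect, at -2.52, did not pass after adjustment. The dimmer probe set, 1460250_at, had means of 204 in E18.5 mutants and 1596 in E18.5 controls. On it E14.5 mutants were at least 1.38-fold lower than E14.5 controls, and the stage effect did not pass (limma adjusted p = 0.0553). Nephron and collecting duct markers were also lower in E18.5 mutants: 4 of 6 genes of the loop and distal tubule list, 4 of 6 of the proximal tubule, 2 of 4 measured of the podocyte and 2 of 6 of the collecting duct list were called at 2-fold, beside 2.23% of all named genes. The loop and distal tubule list summed to 3433 and 3501 in E18.5 mutants against 9981 and 9684 in E18.5 controls. At E14.5 it summed to 2969 and 3009 in mutants against 3181 and 3292 in controls, with 1 of 6 genes called lower, beside 0.121% of all. Their part in the Sostdc1 result was not tested.

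Id4, the fourth Id gene, was the gene called higher in mutants at E18.5. Its probe set 1423260_at gave 1545 and 1566 in E18.5 mutants, 681 and 675 in E18.5 controls, 1115 and 821 in E14.5 mutants, and 892 and 971 in E14.5 controls, so that the genotypes were apart at E18.5, by 2.29-fold (2.27 to 2.32), and overlapped at E14.5. The 2 other probe sets of Id4 differed in the same direction at E18.5, by 1.78-fold (1.67 to 1.91) on the brightest, 1423259_at, and 1.61-fold (1.51 to 1.71) on 1450928_at. The genotype effect on 1423260_at did not pass in limma (adjusted p = 1.00).

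Between the stages in controls, Fstl1, a secreted BMP-binding glycoprotein and the brightest of the antagonist list, was called higher on 1448259_at, 2.77-fold (2.69 to 2.86), and stood at 1.23-fold on its brightest probe set. Tbx2, a T-box target of BMP signalling in other tissues, was called higher at 2.44-fold (2.39 to 2.49). Called lower were Smad4, the common partner of the receptor Smads, on 1422486_a_at at 0.456 (0.334 to 0.614), Crim1, a membrane-bound BMP antagonist, on its dimmer probe set at 0.494 (0.458 to 0.530), and the E protein gene Tcf12 on 1439619_at at 0.304 (0.243 to 0.397). The E18.5 control signals of these probe sets of Crim1 and Tcf12 lay below the 40th percentile, and set to it Crim1 was at least 1.16-fold and Tcf12 at least 2.79-fold lower at E18.5. The brightest probe sets of Smad4 and Tcf12 stood at 0.755 and 0.553 in the same comparison, and the brightest of Crim1 was higher at E18.5, at means of 722 in E18.5 controls and 428 in E14.5 controls. In mutants Bmp1, a metalloproteinase that cleaves the antagonist chordin, was called higher at E18.5, at 2.00-fold (1.67 to 2.34). Its means there were 1156 at E18.5 and 578 at E14.5. In controls they were 759 at E18.5 and 398 at E14.5, a similar difference that did not reach the 2-fold limit. The mutant mean lay above the control mean at both stages. The additive limma stage effect on this probe set was 0.96 (limma adjusted p = 0.0209).

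The brightest genes of the remaining lists did not reach 1.5-fold on their brightest probe sets, although dimmer probe sets of Acvr2b and Neo1 were called lower at 1.5-fold for E18.5 over E14.5 in controls, at 0.610 and 0.540, that of Neo1 with E18.5 controls below the limit. Those brightest probe sets gave the ligand Gdf2 at ratios between 0.982 and 1.08, the type II receptor Acvr2b between 0.901 and 1.18, the coreceptor Neo1 between 1.12 and 1.37, and the Smad corepressor Skil between 0.790 and 0.847. For the additive limma stage effect, 101 probe sets outside the members were tested, of which 10 in 9 genes rose and 5 in 4 genes fell. These are 9.9% and 4.95% of those tested, against 3.42% and 5.2% of all probe sets. Smad4 fell on 2 of its probe sets, and the E proteins were split, with Tcf3 rising on 2 probe sets and Tcf4 and Tcf12 falling on 1 each. For genotype, 0 of the 101 passed.

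Marker genes of other cell types differed between the pools beside these values. The signals of the 6 nephron progenitor markers summed to 4615 and 5277 in E18.5 mutants, 2815 and 2942 in E18.5 controls, 5702 and 5674 in E14.5 mutants, and 4272 and 4558 in E14.5 controls. By their brightest probe sets, 4 of the 6 were called higher in mutants at 1.5-fold at E18.5, beside 1.22% of all named genes by any probe set. At E14.5 it was 1 of the 6, beside 0.456%. The stroma list summed to between 18137 and 19309 in E18.5 mutants, 14704 and 14851 in E18.5 controls, 12517 and 13087 in E14.5 mutants, and 10139.7 and 10503 in E14.5 controls. Of its 6 genes, 2 were called higher in mutants at 1.5-fold at E18.5 and 0 at E14.5. Both lists moved in the same direction as Id3 between the genotypes and, at E18.5, as Bmp2 and Id4. They were not alone in this. The summed ureteric bud, smooth muscle and erythroid lists were also higher on both mutant arrays than on both control arrays at each stage. So were the macrophage list at E18.5 and the endothelium list at E14.5. All 6 nephron progenitor genes were higher on both mutant arrays at each stage. Of the 6 stroma genes, 5 were at E18.5 and 6 at E14.5. For the ureteric bud it was 3 and 1 of 6 in the same order, and for smooth muscle 2 and 1 of 6. For erythroid genes it was 2 of 5 at each stage, with 1 lower at E18.5. The macrophage list had 4 of 6 at E18.5 and the endothelium list 4 of 6 at E14.5. At E14.5 the closest smooth muscle sums were 2992.8 in mutants and 2988.7 in controls. The ureteric bud list summed to 5348 and 5521 in E18.5 mutants against 5042 and 4915 in E18.5 controls. The proximal tubule list moved the other way at E18.5, at 1770.1 and 1809.8 in E18.5 mutants against 11756 and 12164 in E18.5 controls. Between the stages, the smooth muscle list summed to between 6765 and 7089 on E18.5 arrays and 2960.4 and 3087 on E14.5 arrays, and the erythroid list to between 918 and 1019.5 on E18.5 arrays and 8163 and 9568 on E14.5 arrays. The collecting duct list summed to 2004 and 2072 in E18.5 mutants, 5232 and 5325 in E18.5 controls, 1475 and 1372 in E14.5 mutants, and 1487 and 1412 in E14.5 controls. The part of all these lists in the values of Id3, Bmp2, Bmp7, Id1 and Id4 was not tested.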

How the data were processed

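RNA of 4 pools of whole embryonic kidneys was hybridized to 8 Affymetrix Mouse Genome 430 2.0 arrays, 2 target preparations of 1 RNA per pool. The deposited values are linear signal intensities of probe sets. The authors normalized the arrays in dChip2004 on an invariant set of probes and summarised the probes with its model. This takes the invariant set as unchanged between pools, and the medians in the files are not those the methods state after normalization. Detection calls were not used here, and the 40th percentile of each array stood in for them. The number of arrays limits the precision.

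Symbols came from the platform annotation updated through gene identifiers: 34958 probe sets had 1 gene, 932 several and 9211 none. Ratios were taken between arithmetic means of duplicates, and a bound set each array of a pool wholly below the 40th percentile to that percentile. Every member gene was named, and all its probe sets were plotted as ratios. Of the listed pathway genes, those that passed the 2-fold criteria and the brightest of each list were named. The members and lists were chosen with earlier results of these data known. limma 3.58.1 in R 4.3.3 fitted genotype and stage on log2(signal + 1), with duplicates averaged, Benjamini-Hochberg adjustment over 27061 probe sets and 1 residual degree of freedom. Scripts ran in Python 3.11.15 and were tested on simulated data. Motifs were searched on both strands, and the promoters of Bmp2, Bmp7 and Id1 and the protein sequences were not analysed here. Alternatives varied the minimum signal, normalization, offset, mean, probe set rule and variance model, and left out each array in turn.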

Additional observations from a re-analysis of the deposited data

Results flagged for a closer look

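Bmp7, read by its brightest probe set 1435479_at, was lower in mutants than in controls at E18.5, at a log2 ratio of -0.17, and higher at E14.5, at 0.25, with every array pairing on its own side of 0 at each stage. The difference between the stages was not tested. On 1418910_at the log2 ratios were -0.17 and 0.35 and on 1432410_a_at 0.04 and -0.05.

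Bmpr2, read by 1434310_at, was lower in mutants at E18.5, at -0.15, and higher at E14.5, at 0.17. Seen by stage, E18.5 over E14.5, it stood at -0.16 in mutants and 0.16 in controls. With quantile normalization mutant over control came to -0.00 in the E18.5 pair and 0.07 in the E14.5 pair, and E18.5 over E14.5 to -0.01 in mutants and 0.06 in controls. Both statements rest on the same 8 arrays, and the difference was not tested. The pairs of duplicates were within 1.10-fold of each other in all 4 pools.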

How the results depend on the processing

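No paired analysis was possible because arrays with the same number come from separate RNA pools and share only a number. The count of members called at 2-fold stayed at 0 under all alternatives for mutant over control at both stages and for E18.5 over E14.5 in mutants. In controls the 1 gene called for stage became 0 with the brightest probe set only and 0 with the mean over a gene's probe sets, and leaving out single arrays gave 1 to 2 genes, the second, without E14.5 control array 1, being Bmp2. For the additive limma fit, 2 member probe sets called for stage became 1 with the 50th percentile as minimum, 0 with median scaling, 3 with quantile normalization (Id1 the third), and 0 to 3 when single arrays were left out. They were 0 without E18.5 control array 2, 1 without E14.5 control array 2, 1 without E14.5 mutant array 1 and 3 without E18.5 mutant array 1. Under the 50th percentile minimum, Bmp7 1432410_a_at was left out of the fit, since its mean signal lay at percentile 46.1. The cause of the other changes was not tested.

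No member was called for genotype under any alternative. Without E18.5 mutant array 2, 2 probe sets were called higher and 59 lower for genotype over the whole array, against 0 with all arrays. Log2 ratios of the brightest probe sets kept their sign over all settings in all 4 comparisons for Bmp2, Bmpr2 and Id3, and changed sign in all 4 for Bmp4, Bmp6 and Id2. Mutant over control at E14.5, Bmp2 came as low as 0.00. Quantile normalization took all 4 log2 ratios of Bmpr2 to between -0.01 and 0.07, and adding 50 to each signal took Bmp2 at E18.5 to 0.60. Other scalings moved the median log2 ratio of all probe sets by at most 0.05, while single members moved more. With quantile normalization the log2 ratio of E18.5 mutants to E18.5 controls rose from 0.09 to 0.25 for Id2. For Id3 it rose from 0.41 to 0.56 and for Id1 from 0.09 to 0.22. It fell only for Bmp2, from 0.76 to 0.69, and for Bmp5, from 0.20 to 0.16. With 1 pool per group, spread between animals was not measured, and signals under the 40th percentile, such as those of Bmp5, limit what can be read.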
